A study of Homo sapiens with 8 samples.

Results

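The cytosolic ribosomal proteins described here were the 77 protein-coding rows, on an autosome or the X chromosome, whose symbol names a protein of the large (RPL, 46 genes) or small (RPS, 31 genes) ribosomal subunit, the stalk proteins RPLP0, RPLP1 and RPLP2 and the small-subunit protein RPSA included. They were chosen by symbol and not by any measured value, out of 80311 rows in the count table. Earlier results of these data were known when they were chosen. All 77 passed the filter on low counts, which kept 43321 rows. FAU and RACK1 encode core ribosomal proteins under other symbols and were treated apart.

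RNA was sequenced from 2 lines derived from U2OS, a human osteosarcoma cell line. One was U2OS-Flp-In-TREx ("Flp-In" below). The other was U2OS AiD-DiVA AsiSI-ER ("AsiSI" below), which carries a restriction enzyme that 4-hydroxytamoxifen (4-OHT) activates to cut the genome at its recognition sites. Cells of each line were transfected at 0 and 48 h, either with siNC, the control, or with siMePCE, which targets the 7SK capping enzyme gene MEPCE, and were lysed at 96 h. The AsiSI cells, with either siRNA, also received 300 nM 4-OHT for the last 4 h. No 4-OHT is stated for the Flp-In cells, so a difference between the lines and a difference made by 4-OHT cannot be told apart. There were 2 libraries in each of the 4 groups, and the labels do not say that they came from separate cultures, so the p-values measure the spread between libraries, which may be technical. The labels do not say whether either line is 1 clone.

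A ribosome holds 1 copy of nearly every ribosomal protein, and cells keep the many genes in balance so that neither subunit lacks a part. Most of the mRNAs begin with a C followed by an uninterrupted run of pyrimidines, the terminal oligopyrimidine (TOP) motif, through which the kinase mTORC1 and the binding protein LARP1 set their translation and stability. Several of the genes also host small nucleolar RNAs in their introns, and some free ribosomal proteins bind MDM2.

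The start-site windows below show what a TOP-like start looks like in members described later; all were chosen from members that have one. Each is 70 bases of RefSeq sequence on GRCh38.p14, from 50 bases before the annotated start to 20 bases from it, 5′ to 3′. Capitals mark the TOP-like run, which is a C at the start followed by at least 4 C or T.
RPS18: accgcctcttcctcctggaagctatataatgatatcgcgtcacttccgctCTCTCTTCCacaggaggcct
RPL21: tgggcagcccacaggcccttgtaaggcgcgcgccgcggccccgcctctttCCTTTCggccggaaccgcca
RPL34: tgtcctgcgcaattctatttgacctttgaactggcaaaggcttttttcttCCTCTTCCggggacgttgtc
RPL39: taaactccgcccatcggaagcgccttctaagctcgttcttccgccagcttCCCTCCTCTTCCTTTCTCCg
RPLP2: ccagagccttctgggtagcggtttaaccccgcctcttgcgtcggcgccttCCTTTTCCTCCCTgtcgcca
RPL41: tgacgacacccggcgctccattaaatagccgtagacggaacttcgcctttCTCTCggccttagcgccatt
RPL38: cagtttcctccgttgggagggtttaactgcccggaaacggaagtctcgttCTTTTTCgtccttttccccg
RPS6: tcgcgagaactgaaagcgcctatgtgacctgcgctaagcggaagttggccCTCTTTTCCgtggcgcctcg
RPL10: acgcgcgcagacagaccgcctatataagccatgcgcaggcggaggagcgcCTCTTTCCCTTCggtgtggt
RPL28: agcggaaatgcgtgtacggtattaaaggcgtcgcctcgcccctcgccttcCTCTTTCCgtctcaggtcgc
RPS18, RPL21, RPL34, RPL39, RPLP2, RPL41 and RPL38 are shown because they are among the largest rises after siMePCE, RPL28 because it fell, and RPS6 and RPL10 because they, with RPL38, differed most between the lines. Of the other members described later, RPL15 and RPS29 had no TOP-like start in the table, and RPS20, RPL37 and RPL5 were not matched. The windows lie at chr6:33272025-33272094 (RPS18, plus strand), chr13:27251508-27251577 (RPL21, plus), chr4:108620526-108620595 (RPL34, plus), chrX:119791611-119791680 (RPL39, minus), chr11:809917-809986 (RPLP2, plus), chr12:56116583-56116652 (RPL41, plus), chr17:74203628-74203697 (RPL38, plus), chr9:19380217-19380286 (RPS6, minus), chrX:154398327-154398396 (RPL10, plus) and chr19:55385882-55385951 (RPL28, plus). RPL34 and RPL10 have 2 and 3 annotated starts, of which 1 each is shown.

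In all, 62 of the 77 genes matched the promoter table, with 77 windows of 300 bases. A TOP-like start opened 46 of these windows, 59.7%, against 4.07% of the 35116 windows of all genes. CCGGAA, the core recognised by ETS factors such as GABPA, was found on either strand in 51.9% of the members' windows and 17.2% of all windows. TCTCGCG, an element found at many housekeeping promoters, stood on either strand in 23.4% against 3.49%. The E-box CACGTG (5.19% against 7.26%) and TATAAA (6.49% against 11.5%) were no more frequent among the members. These matches describe letters in a window, and the shares were not tested.

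Across the libraries, total counts ranged from 41431776 to 53695626. MEPCE itself, the siRNA target, had 1405 to 1712 counts under siNC but 102 to 264 under siMePCE. The mitochondrial genome held 5.23 to 5.91% of counts under siNC and 8.24 to 10.6% under siMePCE. Of the mesenchymal markers, RUNX2 (29.2 to 44.8 CPM, which are counts scaled to a common library total), SPARC (268 to 483 CPM), VIM, CDH2 and COL1A1 were present in every library, while COL1A2 was near absent (0.0483 to 0.818 CPM). The epithelial, blood, liver and endothelial markers measured (EPCAM, CDH1, PTPRC, CD3E, ALB and CDH5) lay between 0 and 7.57 CPM, with CD3E at 0 to 0.13 CPM.

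The members held 1.71% and 1.70% of all counts in the Flp-In siNC libraries and 2.43% and 2.28% in the Flp-In siMePCE libraries. In AsiSI cells the corresponding shares were 1.61% and 1.81% under siNC and 2.17% and 2.17% under siMePCE. The 2 groups did not overlap in either line, but RPS29 alone held 25 to 34.1% of these counts. A row on the other strand, nested in RPS29 at chr14:50053152-50056437 (hg19), held 98.0% of the counts of RPS29, and GENCODE 29 places the 7SL RNA gene RN7SL1 inside RPS29 on the opposite strand. Reads were counted over whole genes, introns included, and apparently for every row they overlapped, so the value of RPS29 (log2 fold change 0.68 in Flp-In and 0.59 in AsiSI cells) cannot be assigned to RPS29. Without RPS29 the members summed to 12075 and 12614 CPM in control Flp-In cells, 17215 and 14751 after their knockdown, 12122 and 13287 in control AsiSI cells, and 14810 and 14160 after knockdown there. In bulk RNA a change in the number of cells and in RNA per cell cannot be told apart.

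After MEPCE knockdown in Flp-In cells most ribosomal protein genes were higher relative to the other RNAs. Introns were counted, so spliced and unspliced RNA cannot be told apart. Of the 77 genes, 56 were called higher at an adjusted p under 0.05, 3 were called lower and 18 were not called. Over all 43321 genes tested, 18.1% were called higher and 22.8% lower, and over the protein-coding genes 20.6% and 34.3%. The median log2 fold change of the members was 0.41, with a range of −0.81 to 0.92, against 0.03 over all genes tested and −0.10 over protein-coding rows. Above 0 lay 73 of the 77, beside 22311 of all 43321 genes and 7602 of 17341 protein-coding genes. For 63 members both siMePCE libraries exceeded both siNC libraries, and for 3 the reverse held, where 36.3% and 36.6% of all genes did so. Both subunits took part, with 29 of 46 large-subunit genes higher and 2 lower (median 0.41) and 27 of 31 small-subunit genes higher and 1 lower (median 0.41). The mitochondrial share of counts was higher in the same libraries. With rows annotated as mitochondrial, 7SK, 7SL or ribosomal RNA removed before scaling, 43031 rows were tested and the counts were again 56 and 3. RPS29 and the row nested in it stayed in. TMM scaling trims rows with extreme changes, so this removal could change little. The part of the mitochondrial share in the result was not tested. Without Flp-In siMePCE replicate 2, only 1 member was called lower.

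AsiSI cells treated with 4-OHT showed the same direction with a lower median. There, 36 of the 77 genes were called higher, 2 lower and 39 were not called, where 16.8% of all genes were called higher and 21.4% lower, and of protein-coding genes 17.0% and 35.1%. The median log2 fold change was 0.22, with a range of −0.92 to 0.68, against 0.04 over all genes tested and −0.14 over protein-coding rows. Above 0 lay 63 members, beside 22521 of all 43321 genes and 7153 of 17341 protein-coding genes. The 2 groups stood apart upwards for 50 members and downwards for 7, against 33.5% and 33.3% of all genes. Of the large-subunit genes 17 of 46 were higher and 1 lower (median 0.19), and of the small-subunit genes 19 of 31 were higher and 1 lower (median 0.26). Without AsiSI siNC replicate 1 the median was 0.14, the count called higher 20 and the count called lower 6; without AsiSI siMePCE replicate 1 the count called higher was again 20. The mitochondrial share was higher in these siMePCE libraries too. With the same rows removed the counts were 36 and 2, and here too the removal could change little.

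**Figure D1:**
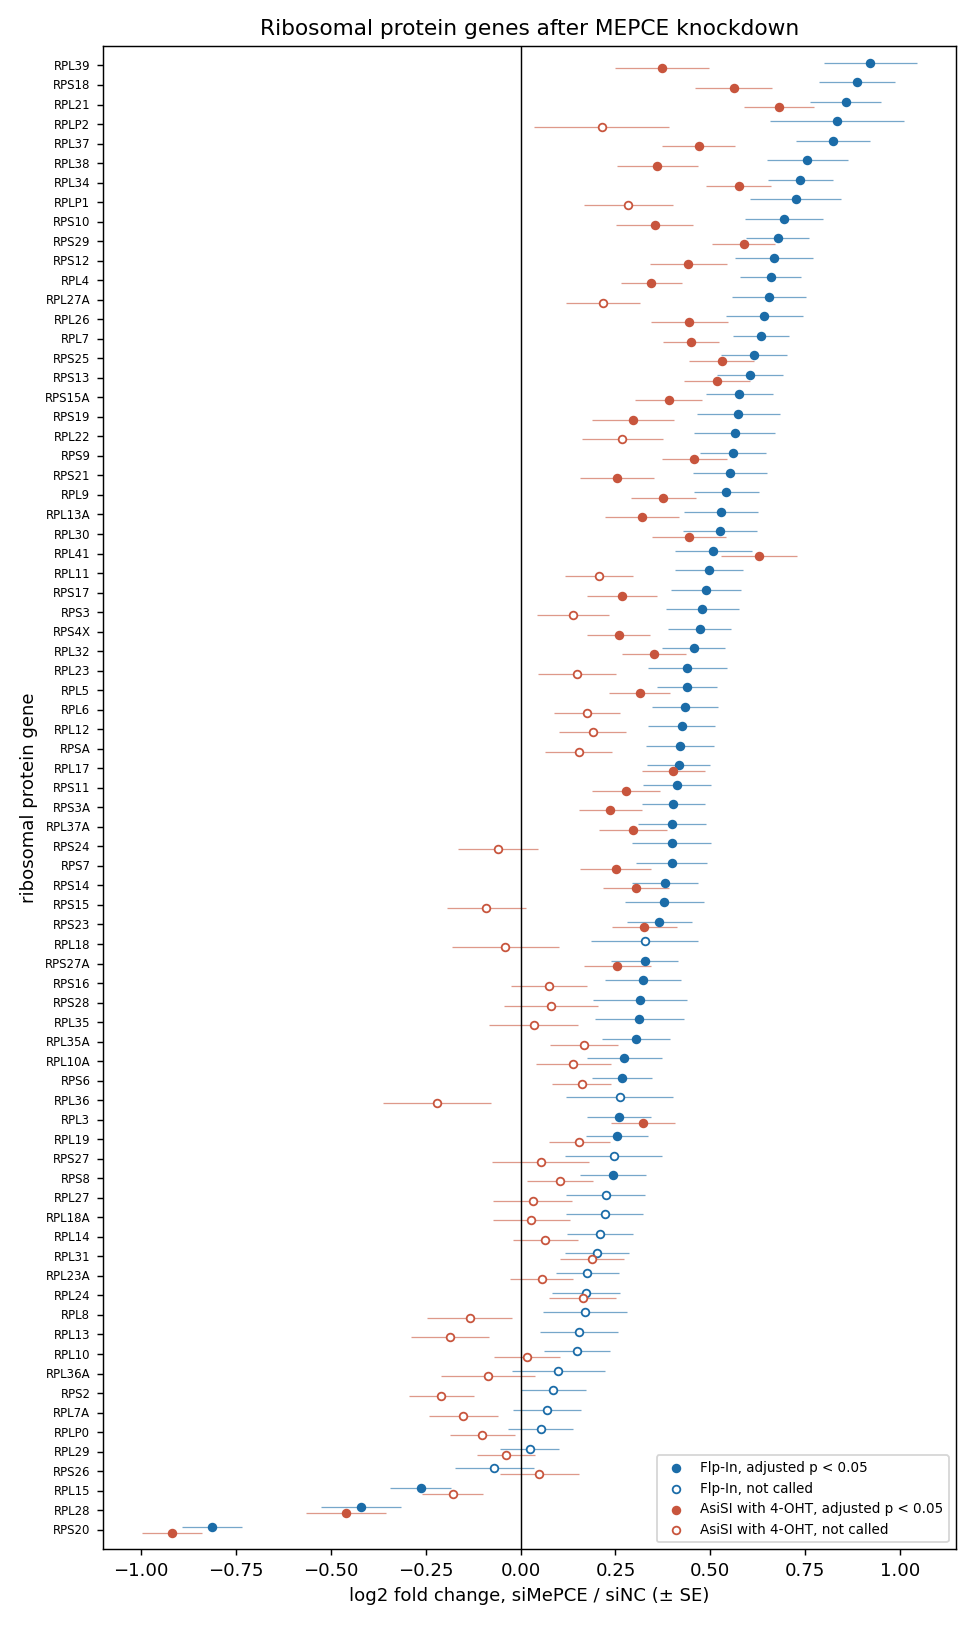
Log2 fold change, siMePCE over siNC (x axis), of 76 of the 77 ribosomal protein genes (y axis, ordered by the Flp-In value), Flp-In in blue and AsiSI with 4-OHT in red; points are estimates, lines ± SE, and filled points were called at an adjusted p under 0.05. Most blue points (72 of 76) and most red points (62 of 76) lie above 0, and RPS20, RPL28 and RPL15 stand below 0 at the bottom.

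The 2 siRNA comparisons share no library. All 36 members called higher in AsiSI cells were also called higher in Flp-In cells, 20 were called higher in Flp-In cells alone, 2 were lower in both, 1 was lower in Flp-In cells alone, and 18 were called in neither. Across the 77 genes, which are not independent replicates, the fold changes of the 2 lines had a Pearson r of 0.862 and a Spearman rho of 0.833. A call in 1 line alone does not show a difference, so the difference of the siMePCE effect between the lines was tested. No member passed that test with edgeR at an adjusted p under 0.05, where 2.6% of all genes were called higher and 1.81% lower. At an unadjusted p under 0.05 there were 19 members (24.7%), beside 17.9% of all genes and 24.5% of protein-coding genes, so the members' share was that of protein-coding genes. The effect in AsiSI cells minus that in Flp-In cells was below 0 for 73 of 77 members, with a median of −0.19 against −0.02 over all genes and −0.06 over protein-coding rows. It was below 0 for 22224 of all 43321 genes and for 9715 of 17341 protein-coding genes. DESeq2 called 3 members lower (RPL27A, RPS15 and RPL39), and 5 were called without the filter on low counts. Leaving out Flp-In siMePCE replicate 2 gave 8 called lower (median −0.30), and leaving out AsiSI siNC replicate 1 gave 5. Without Flp-In siMePCE replicate 1 the median was −0.07, with 2 members at an unadjusted p under 0.05 and none called, and without AsiSI siNC replicate 2 it was −0.12, with 7 and none called. RPL27A and RPS15 were among the called in each alternative that called any member. In the main edgeR fit their differences were −0.44 (adjusted p = 0.0762) and −0.47 (adjusted p = 0.0764), neither called.

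**Figure D2:**
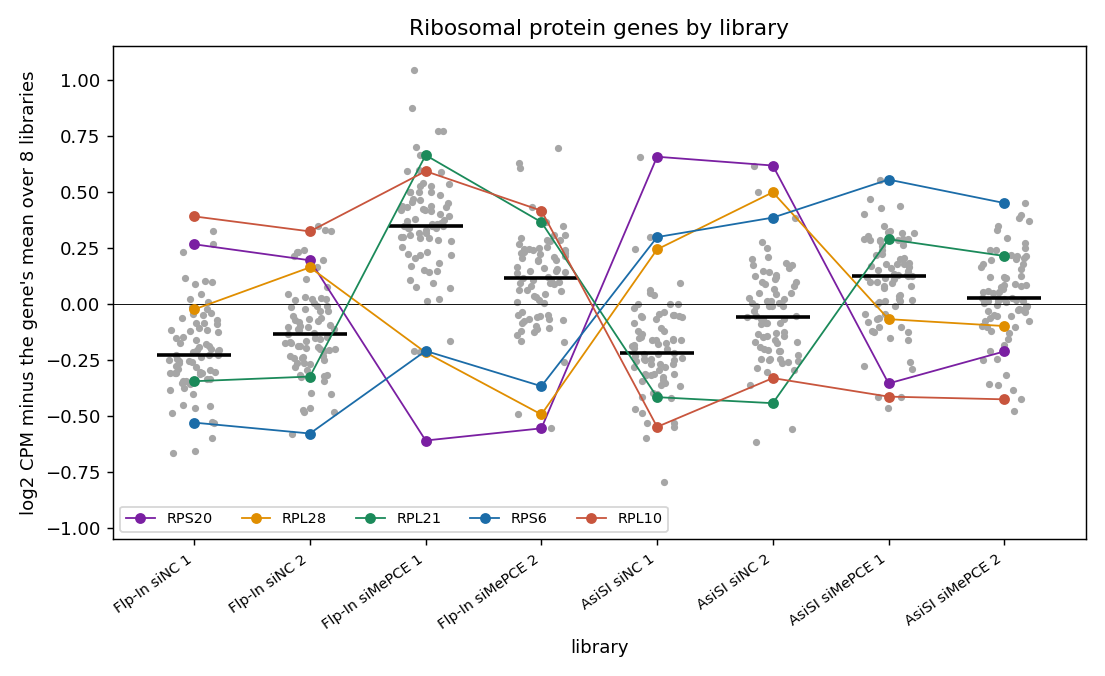
Log2 CPM of each of the 77 genes minus that gene's mean over the 8 libraries (y axis) by library (x axis); grey points are genes, black bars the median of the genes, and 5 genes are joined by coloured lines. Flp-In siMePCE replicate 1 holds the highest bar, RPS20 drops in every siMePCE library, and RPS6 and RPL10 separate the lines.

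The largest rise in Flp-In cells was that of a large-subunit gene. RPL39, an X-linked gene for a small protein lining the peptide exit tunnel, stood at 15.9 and 18 CPM in control Flp-In cells, 33.6 and 30.5 after their knockdown, 14.1 and 15.4 in control AsiSI cells, and 18.1 and 20.02 after knockdown there. The knockdown libraries were higher in each line, without overlap. The rise was 1.89-fold in Flp-In cells (log2 0.92, SE 0.12, adjusted p = 2.25e-06) and 1.30-fold in AsiSI cells (log2 0.37, SE 0.12, adjusted p = 0.0199). The call in AsiSI cells was lost without AsiSI siNC replicate 1 (log2 0.30, adjusted p = 0.149) and without AsiSI siMePCE replicate 2 (log2 0.29, adjusted p = 0.146). RPL39 is 1 of 4 members, with RPL36A, RPS26 and RPS28, whose pseudogenes held over 0.1 of the gene's own counts (0.238 for RPL39), so its reads may be split among copies.

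RPL21, another large-subunit protein, gave 87.0 and 88.3 CPM in control Flp-In cells, 175 and 142 after their knockdown, 82.9 and 81.3 in control AsiSI cells, and 135 and 128 after knockdown there. Its rises of 1.81-fold (log2 0.86, SE 0.09, adjusted p = 1.34e-07) and 1.60-fold (log2 0.68, SE 0.09, adjusted p = 3.39e-06) were of like size, and the siNC libraries of the 2 lines were close together. RPL37 read 155 and 167 CPM in control Flp-In cells, 311 and 258 after their knockdown, 133 and 160 in control AsiSI cells, and 204 and 202 after knockdown there, rising 1.77-fold (adjusted p = 4.27e-07) and 1.39-fold (adjusted p = 0.000459). RPL34 was at 103 and 108 CPM in control Flp-In cells, 185 and 166 after their knockdown, 71.8 and 71.1 in control AsiSI cells, and 110 and 103 after knockdown there. RPL34 thus rose in both lines, 1.67-fold (adjusted p = 3.35e-07) and 1.49-fold (adjusted p = 1.09e-05), from a lower siNC level in AsiSI cells.

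RPL38, known from mice for its part in translating Hox mRNAs, was at 172 and 202 CPM in control Flp-In cells, 354 and 278 after their knockdown, 98.8 and 117 in control AsiSI cells, and 143 and 133 after knockdown there. It rose 1.69-fold in Flp-In cells (adjusted p = 5.71e-06) and 1.28-fold in AsiSI cells (adjusted p = 0.0104), the latter call being lost without AsiSI siNC replicate 1 (log2 0.23, adjusted p = 0.173) or AsiSI siMePCE replicate 1 (log2 0.29, adjusted p = 0.0943). The overlapping row MGC16275 held 1.01 times the counts of RPL38, which makes its value uncertain. RPL41, the shortest ribosomal protein, stood at 57.5 and 53 CPM in control Flp-In cells, 80.0 and 77.1 after their knockdown, 42.6 and 52.4 in control AsiSI cells, and 75.7 and 71.2 after knockdown there. Its rise was 1.42-fold in Flp-In cells (adjusted p = 0.000288) and 1.55-fold in AsiSI cells (adjusted p = 2.75e-05), and an overlapping row with 2.29 times its counts makes it uncertain as well.

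Among small-subunit genes RPS18, whose protein sits in the head of the subunit, had the largest rise in Flp-In cells. It was at 153 and 174 CPM in control Flp-In cells, 337 and 269 after their knockdown, 202 and 238 in control AsiSI cells, and 329 and 320 after knockdown there. The folds were 1.85 (log2 0.89, SE 0.10, adjusted p = 2.99e-07) and 1.48 (log2 0.56, SE 0.10, adjusted p = 0.000105), and the siMePCE libraries of the 2 lines overlapped while the siNC libraries did not. RPS25, which several viral RNAs need for internal initiation, read 190 and 195 CPM in control Flp-In cells, 317 and 272 after their knockdown, 195 and 191 in control AsiSI cells, and 294 and 263 after knockdown there, a rise of 1.53-fold (adjusted p = 4.38e-06) and 1.45-fold (adjusted p = 2.99e-05). RPS13 gave 124 and 133 CPM in control Flp-In cells, 209 and 183 after their knockdown, 124 and 135 in control AsiSI cells, and 190 and 181 after knockdown there, rising 1.52-fold (adjusted p = 6.41e-06) and 1.43-fold (adjusted p = 4.77e-05). RPS25 and RPS13 were nearly the same in the 2 lines under either siRNA.

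The stalk proteins RPLP0, RPLP1 and RPLP2 together recruit the translation factors that hydrolyse GTP, and their genes gave different values. RPLP2 was at 15.3 and 21.5 CPM in control Flp-In cells, 38.6 and 26.8 after their knockdown, 14.6 and 19.8 in control AsiSI cells, and 19.6 and 20.3 after knockdown there. It rose 1.78-fold in Flp-In cells (log2 0.83, SE 0.18, adjusted p = 0.00084), and in AsiSI cells, where the groups overlapped, the log2 fold change was 0.21 (adjusted p = 0.373). RPLP1 read 119 and 145 CPM in control Flp-In cells, 243 and 192 after their knockdown, 154 and 196 in control AsiSI cells, and 209 and 217 after knockdown there. It rose 1.65-fold in Flp-In cells (adjusted p = 6.31e-05) and had a log2 fold change of 0.28 in AsiSI cells (adjusted p = 0.0659), with an overlapping row, KIF23-AS1, at 1.87 times its counts. RPLP0, the stalk base that joins them to the ribosome and a common reference gene, was at 290 and 304 CPM in control Flp-In cells, 336 and 280 after their knockdown, 303 and 327 in control AsiSI cells, and 290 and 297 after knockdown there. Its groups overlapped in Flp-In cells (log2 0.05, SE 0.09, adjusted p = 0.651), and in AsiSI cells the log2 fold change was −0.10 (SE 0.09, adjusted p = 0.383). The differences between these 3 genes were not tested.

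**Figure D3:**
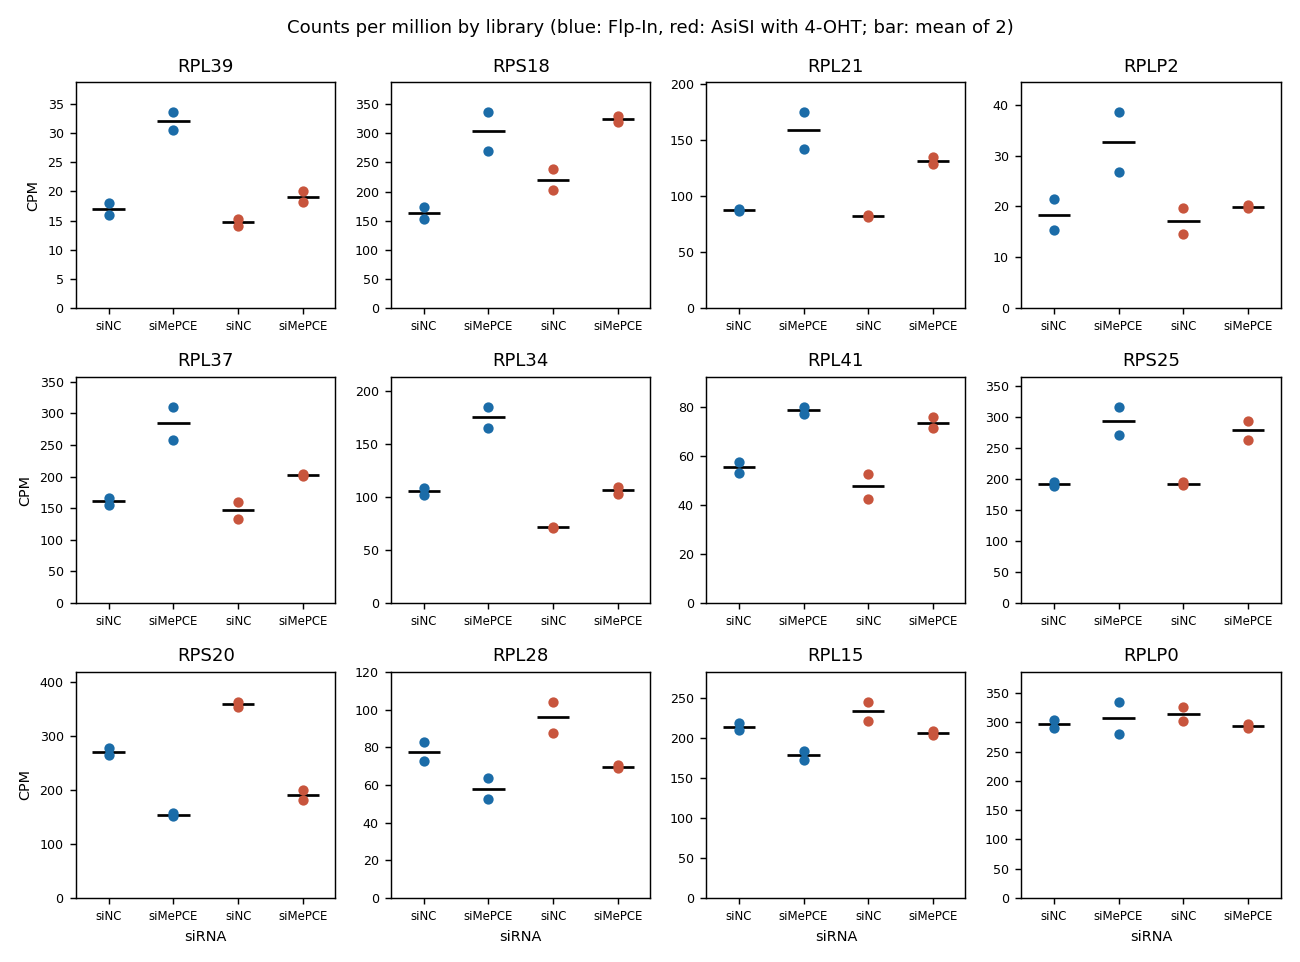
CPM (y axes, from 0) of 12 ribosomal protein genes in each of the 8 libraries by siRNA (x axes), Flp-In in blue and AsiSI with 4-OHT in red; points are libraries and bars the mean of 2. The first 8 genes are higher under siMePCE in both lines except RPLP2, whose AsiSI groups overlap; RPS20, RPL28 and RPL15 are lower, and the Flp-In groups of RPLP0 overlap.

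The 3 members called lower in Flp-In cells went the other way. RPS20, another protein of the head of the small subunit, stood at 278 and 264 CPM in control Flp-In cells, 151 and 157 after their knockdown, 364 and 354 in control AsiSI cells, and 181 and 199 after knockdown there. Knockdown and control libraries were far apart in both lines. RPS20 fell 1.76-fold in Flp-In cells (log2 −0.81, SE 0.08, adjusted p = 2.8e-08) and 1.89-fold in AsiSI cells (log2 −0.92, SE 0.08, adjusted p = 4.43e-09). The antisense row CERNA3, which overlaps RPS20, held 0.083 of its counts, 880 and 1019 in Flp-In siNC where RPS20 held 11907 and 11038, and 746 and 580 in Flp-In siMePCE where RPS20 held 7466 and 7598. The part of CERNA3 in the result was not tested.

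RPL28, a large-subunit protein without a bacterial counterpart, was at 72.7 and 82.8 CPM in control Flp-In cells, 63.6 and 52.6 after their knockdown, 87.5 and 104 in control AsiSI cells, and 70.6 and 69.1 after knockdown there. It fell 1.34-fold in Flp-In cells (log2 −0.42, SE 0.11, adjusted p = 0.00273) and 1.38-fold in AsiSI cells (log2 −0.46, SE 0.11, adjusted p = 0.00126). The call in Flp-In cells was lost without Flp-In siMePCE replicate 2 (log2 −0.29, adjusted p = 0.0804). UBE2S, a ubiquitin-conjugating enzyme gene on the other strand, overlaps RPL28 with 0.588 times its counts. UBE2S moved with it, at 1822 and 1981 counts in Flp-In siNC against 1559 and 1326 in Flp-In siMePCE, and 3037 and 3693 in AsiSI siNC against 1478 and 1669 in AsiSI siMePCE, and its part in the result was not tested. RPL15, in the core of the large subunit, was at 210 and 218 CPM in control Flp-In cells, 184 and 173 after their knockdown, 221 and 245 in control AsiSI cells, and 208 and 203 after knockdown there. It fell 1.20-fold in Flp-In cells (log2 −0.26, adjusted p = 0.0118), a call lost without Flp-In siNC replicate 2 (log2 −0.25, adjusted p = 0.0855), without Flp-In siMePCE replicate 2 (log2 −0.22, adjusted p = 0.11) and with scaling on protein-coding rows (log2 −0.15, adjusted p = 0.0955). In AsiSI cells its log2 fold change was −0.18 (adjusted p = 0.0844). RPL15 lies inside the row of NKIRAS1, which held 1.23 times its counts.

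RPL5, RPL11 and RPL22 are large-subunit proteins with roles outside the ribosome, RPL5 and RPL11 as the pair that binds MDM2. RPL5 was at 340 and 341 CPM in control Flp-In cells, 484 and 439 after their knockdown, 336 and 320 in control AsiSI cells, and 431 and 385 after knockdown there. It rose 1.36-fold (adjusted p = 0.000118) and 1.24-fold (adjusted p = 0.00326), the latter call being lost without AsiSI siMePCE replicate 1 (log2 0.21, adjusted p = 0.093), and DIPK1A overlaps it with 1.06 times its counts. RPL11 was at 94.5 and 98.5 CPM in control Flp-In cells, 148 and 124 after their knockdown, 88.7 and 91.0 in control AsiSI cells, and 105 and 103 after knockdown there, with folds of 1.41 (adjusted p = 0.00011) and 1.16 (adjusted p = 0.0744). Both genes had higher siMePCE than siNC libraries in each line, and the rise of RPL11 passed the test in Flp-In cells only, a difference between lines that did not itself pass (adjusted p = 0.227). RPL22 rose 1.48-fold in Flp-In cells (adjusted p = 0.000183) and was at a log2 fold change of 0.27 in AsiSI cells (adjusted p = 0.052). An overlapping row on the same strand held 0.935 times the counts of RPL22, which makes its value uncertain.

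RPS6, the substrate of the S6 kinases, rose 1.20-fold in Flp-In cells (log2 0.27, adjusted p = 0.00875), and the call was lost without Flp-In siNC replicate 2 (log2 0.23, adjusted p = 0.095) or Flp-In siMePCE replicate 1 (log2 0.17, adjusted p = 0.165). In AsiSI cells its log2 fold change was 0.16 (adjusted p = 0.111). RPS27A, made as a fusion with ubiquitin, rose 1.25-fold in Flp-In cells (adjusted p = 0.00519) and 1.19-fold in AsiSI cells (adjusted p = 0.0267). Its call in Flp-In cells was lost without Flp-In siNC replicate 1 (log2 0.28, adjusted p = 0.0751) or siMePCE replicate 1 (log2 0.17, adjusted p = 0.2), and that in AsiSI cells without any 1 of the AsiSI libraries (log2 0.20 to 0.29, adjusted p = 0.0512 to 0.17). RPSA, also known as the laminin receptor, rose 1.34-fold in Flp-In cells (adjusted p = 0.000583) and had a log2 fold change of 0.15 in AsiSI cells (adjusted p = 0.188). All 3 of these small-subunit genes passed the test in Flp-In cells. Of the X-linked members, RPS4X rose 1.39-fold in Flp-In cells (adjusted p = 7.94e-05) and 1.20-fold in AsiSI cells (adjusted p = 0.0168), the latter call being lost without AsiSI siNC replicate 1 (log2 0.19, adjusted p = 0.167) or AsiSI siMePCE replicate 1 (log2 0.15, adjusted p = 0.253). RPL36A was not called in either line, with log2 values of 0.10 in Flp-In cells (adjusted p = 0.547) and −0.09 in AsiSI cells (adjusted p = 0.621). A read-through row holds 2.08 times the counts of RPL36A, and PIN4 overlaps RPS4X with 1.12 times its counts.

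Between the lines under siNC, ribosomal protein genes differed in both directions, as did genes at large. In AsiSI cells, which had 4-OHT, 20 members were called higher and 7 lower than in Flp-In cells, against 14.4% and 15.2% of all genes. The median log2 difference was 0.01 for the members, 0.01 for all genes and −0.04 for protein-coding genes, with a range of −0.80 to 0.90 among the members. The groups stood apart upwards for 27 members and downwards for 23, against 31.6% and 32.8% of all genes. Of the 31 small-subunit genes 11 were higher and 1 was lower, and of the 46 large-subunit genes 9 were higher and 6 lower. Without Flp-In siNC replicate 1 the count called higher was 10, and without AsiSI siNC replicate 2 it was 12; with total counts in place of TMM scaling, 18 were higher and 13 lower.

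RPS6 differed most, at 308 and 297 CPM in Flp-In siNC and 546 and 580 in AsiSI siNC, 1.86-fold higher (log2 0.90, SE 0.08, adjusted p = 8.27e-09). The siMePCE libraries kept the gap, at 384 and 344 CPM in Flp-In and 652 and 606 in AsiSI cells. RPS10, at the mRNA entry side of the small subunit, was at 80.8 and 91.7 CPM in Flp-In siNC and 122 and 140 in AsiSI siNC (1.52-fold higher, adjusted p = 7.91e-05), with a read-through row at 1.31 times its counts. RPS23, a protein of the decoding centre, was 1.42-fold higher (89.7 and 92.8 against 126 and 133 CPM, adjusted p = 7.43e-05), and ATG10 overlaps it with 1.19 times its counts. All 3 of these are small-subunit genes. RPS3 was 1.41-fold higher (adjusted p = 0.00036), RPL7 1.35-fold (adjusted p = 9.72e-05), RPS18 1.34-fold (adjusted p = 0.00233) and RPS19, a gene mutated in Diamond-Blackfan anaemia, 1.34-fold (adjusted p = 0.00494). The RPS19 call was lost without Flp-In siNC replicate 1 (log2 0.34, adjusted p = 0.0664).

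On the lower side, RPL10, one of the last proteins to join the large subunit, was at 270 and 258 CPM in Flp-In siNC and 141 and 164 in AsiSI siNC, 1.73-fold lower in AsiSI cells (log2 −0.79, SE 0.09, adjusted p = 2.48e-07). The gap was also present under siMePCE, with 311 and 275 CPM in Flp-In and 155 and 154 in AsiSI cells. RPL38 was 1.74-fold lower in AsiSI cells (log2 −0.80, adjusted p = 4.94e-06), RPS2, a protein of the mRNA entry channel, 1.5-fold lower (516 and 519 against 323 and 365 CPM, adjusted p = 1.26e-05) and RPL34 1.48-fold lower (adjusted p = 2.23e-05). RPL29 was 1.38-fold lower (307 and 308 against 219 and 228 CPM, adjusted p = 6.37e-05). RPL8, a protein near the catalytic centre, was lower by 0.46 on the log2 scale (283 and 336 against 198 and 252 CPM, log2 −0.46, adjusted p = 0.00326), a call lost without Flp-In siNC replicate 2 (log2 −0.30, adjusted p = 0.104) or AsiSI siNC replicate 1 (log2 −0.29, adjusted p = 0.0726). RPL13 was also lower (log2 −0.33, adjusted p = 0.018) and lost its call without either of the same libraries (log2 −0.24, adjusted p = 0.21, and log2 −0.17, adjusted p = 0.296).

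**Figure D4:**
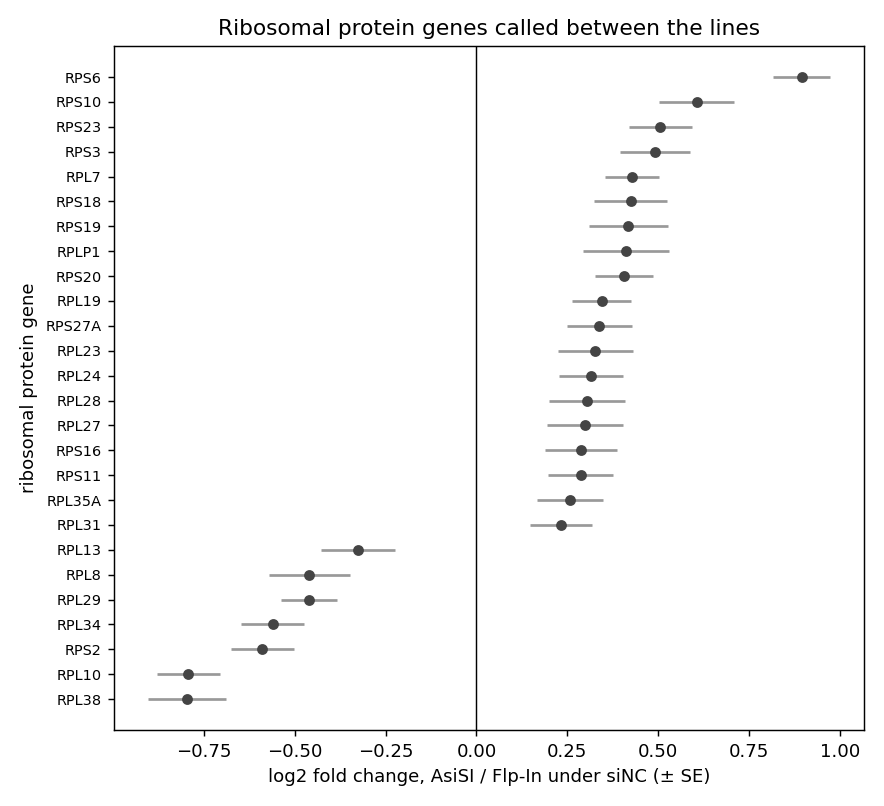
Log2 fold change, AsiSI over Flp-In cells under siNC (x axis), of 26 of the 27 ribosomal protein genes called between the lines (y axis, ordered by value); points are estimates and lines ± SE. RPS6 is the highest at 0.90, and RPL10 and RPL38 are the lowest, at −0.79 and −0.80.

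The members were also described by features that their choice did not use. Gene length ran from 1378 to 80356 bp (median 5643 bp) and had a Spearman rho of 0.232 with the log2 fold change in Flp-In cells and 0.166 in AsiSI cells, across the 77 genes. In 28 members, 58 small nucleolar RNA rows are nested. Of these hosts 21 were higher and 1 lower in Flp-In cells (median 0.43) and 14 and 1 in AsiSI cells (median 0.23), while of the other 49 members 35 were higher and 2 lower (median 0.38) and 22 and 1 (median 0.21). The nested rows held at most 5.43% of a host's counts (RPS12), and subtracting them left 56 and 3 calls in Flp-In cells and 36 and 2 in AsiSI cells. Hosts and non-hosts thus gave like shares, as did the 46 genes with a TOP-like start, of which 33 were higher and 1 lower in Flp-In cells (median 0.41), beside the 16 matched genes without one, of which 13 were higher and 1 lower (median 0.39). In AsiSI cells the same sets gave 20 higher and 1 lower (median 0.22) and 8 higher and 0 lower (median 0.21).

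For 23 members another row overlapped with at least 0.5 times their counts, and 19 of these were higher and 2 lower in Flp-In cells (median 0.46) and 14 and 1 in AsiSI cells (median 0.28). For 37 members no row reached 0.1 times their counts. Of these, where overlap could add least, 25 were higher and 1 lower in Flp-In cells (median 0.38) and 14 and 1 in AsiSI cells (median 0.15). Pseudogenes of the members, 1584 rows, held 0.0273 to 0.0359% of all counts, with a median of 0.0152 of the parent's counts. The proteins of the mitochondrial ribosome, also 77 genes, gave 16 higher and 24 lower in Flp-In cells (median −0.05) and 3 higher and 36 lower in AsiSI cells (median −0.28). In Flp-In cells these shares (20.8% and 31.2%) were close to those of all protein-coding genes (20.6% higher and 34.3% lower). In AsiSI cells they were 3.9% higher and 46.8% lower, against 17.0% and 35.1% of protein-coding genes.

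The mean of the members' centred log2 CPM was −0.20 and −0.12 in control Flp-In cells, 0.34 and 0.10 after their knockdown, −0.20 and −0.05 in control AsiSI cells, and 0.10 and 0.03 after knockdown there. Flp-In siMePCE replicate 1 was thus the highest and the replicates of that group lay farthest apart. The 5 other protein-coding genes most like this profile over the 8 libraries were TMEM11 (Pearson r 0.987), EIF3F (0.984), PIN4 (0.971), S100A11 (0.968) and PRCC (0.966). PIN4 shares reads with RPS4X, and EIF3F, a subunit of an initiation factor, stood on the list of other TOP mRNAs.

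FAU, made as a fusion with a ubiquitin-like protein, rose 1.48-fold in Flp-In cells (adjusted p = 9.59e-05) and 1.30-fold in AsiSI cells (adjusted p = 0.00499), the latter call being lost without AsiSI siNC replicate 1 (log2 0.24, adjusted p = 0.127). SYVN1 overlaps FAU with 0.823 times its counts. RACK1 was called in neither line, at log2 fold changes of 0.14 and 0.08. Of the 8 paralogs of ribosomal protein genes, 2 rose and 2 fell in Flp-In cells, and 3 rose and 2 fell in AsiSI cells, where 20.6% and 17.0% of protein-coding genes were called higher and 34.3% and 35.1% lower. RPL36AL rose 1.61-fold in Flp-In cells while its X-linked counterpart RPL36A was not called, and RPL39L, the paralog of RPL39, fell in both lines (log2 −0.49 and −0.69). RPL7L1 fell 1.55-fold and 1.69-fold, where RPL7 rose 1.55-fold and 1.37-fold. RPL22L1 rose 1.45-fold in Flp-In and 1.34-fold in AsiSI cells. An overlapping row held 0.744 times the counts of RPL3L. RPL3L, under 1 CPM in every library, was the third called higher in AsiSI cells (log2 1.74, adjusted p = 0.035), and its call was lost without AsiSI siNC replicate 1 (adjusted p = 0.111), AsiSI siNC replicate 2 (adjusted p = 0.13) or AsiSI siMePCE replicate 2 (adjusted p = 0.295). Several of these calls rested on 1 library: RPL22L1 was not called without replicate 2 of Flp-In siNC (adjusted p = 0.113) or replicate 1 of Flp-In siMePCE (adjusted p = 0.0911), nor without AsiSI siNC replicate 1 (adjusted p = 0.091) or AsiSI siMePCE replicate 1 (adjusted p = 0.283), RPL39L in Flp-In cells without siNC replicate 1 (adjusted p = 0.0811), and RPL36AL in AsiSI cells (log2 0.45) without siNC replicate 1 (adjusted p = 0.0642).

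Other genes whose mRNAs are known to carry a TOP motif were also called higher more often than lower. Of 14 such genes 10 rose and 1 fell in Flp-In cells (median 0.40) and 7 rose and 2 fell in AsiSI cells (median 0.17). Of protein-coding genes 20.6% and 17.0% rose. EEF1A1, the factor that brings tRNAs to the ribosome, rose 1.90-fold in Flp-In cells (adjusted p = 3.01e-09) and 1.25-fold in AsiSI cells (adjusted p = 0.0019), the latter call being lost without AsiSI siMePCE replicate 1 (log2 0.25, adjusted p = 0.0548). EIF4B rose 1.85-fold and 1.53-fold and EIF3H 1.66-fold and 1.5-fold, both initiation factors. TNS2-AS1 overlaps EIF4B with 0.982 times its counts. EEF2, the translocation factor, fell by 0.25 on the log2 scale in Flp-In cells (log2 −0.25, adjusted p = 0.0161) and 1.41-fold in AsiSI cells (adjusted p = 3.76e-05), and the former call was lost without Flp-In siNC replicate 2 (log2 −0.21, adjusted p = 0.126) or Flp-In siMePCE replicate 2 (log2 −0.17, adjusted p = 0.204) and with scaling on protein-coding rows (log2 −0.14, adjusted p = 0.127). The 15 genes of mTORC1 and of TOP mRNA control were called lower more often than higher, with 2 higher and 8 lower in Flp-In cells (median −0.29) and 0 and 8 in AsiSI cells (median −0.23), where protein-coding genes as a whole were also lower more often than higher (34.3% against 20.6%, and 35.1% against 17.0%). They included MLST8, a subunit of mTORC1 (3.01-fold and 3.74-fold lower), RPS6KB2, an S6 kinase that phosphorylates RPS6 (2.46-fold and 2.88-fold lower), the translational repressor EIF4EBP2 (1.68-fold and 1.84-fold lower) and MTOR (1.64-fold and 1.70-fold lower). RPS6KB2-AS1 overlaps RPS6KB2 with 0.887 times its counts. LARP1 (log2 −0.40 and −0.59) and TSC1 (log2 −0.29 and −0.23) were also called lower in both lines, while RHEB was called higher in Flp-In cells (log2 0.58). The activity of mTORC1 was not measured.

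Of 8 escorts that carry ribosomal proteins to their place of assembly, 1 rose and 3 fell in Flp-In cells. In AsiSI cells 0 rose and 4 fell. Of protein-coding genes 20.6% and 17.0% rose and 34.3% and 35.1% fell. The value of the 1 that rose is uncertain, since an overlapping row held more counts than it did. TSR2, the escort of RPS26, fell 1.61-fold and 1.68-fold, and FGD1 overlaps it with 0.782 times its counts. PDCD2, the escort of RPS2, fell 1.5-fold and 1.65-fold. The log2 fold changes of RPS26 were −0.07 and 0.05 and those of RPS2 0.09 and −0.21, none of them called. Among 6 transcription factors reported at these genes, MYC rose 2.22-fold in Flp-In cells (adjusted p = 2.97e-10) and fell 1.33-fold in AsiSI cells (adjusted p = 0.000353), and its partner MAX rose 1.85-fold and 1.25-fold, the AsiSI call of MAX being lost without siMePCE replicate 1 (log2 0.26, adjusted p = 0.0526). CHURC1-FNTB overlaps MAX with 1.01 times its counts, which makes its value uncertain. GABPA, YY1 and SP1 were called in neither line. MDM2, which RPL5 and RPL11 bind, was called in neither line (log2 −0.11 and 0.08). Under siNC, MDM2 was higher in AsiSI than in Flp-In cells (log2 0.34, adjusted p = 0.00468), a call lost without AsiSI siNC replicate 1 (log2 0.19). CDKN1A, a cell cycle inhibitor gene, was 2.31-fold higher in the same comparison (adjusted p = 3.24e-10), where RPL5 and RPL11 were not called (log2 −0.05 and −0.10).

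**Figure D5:**
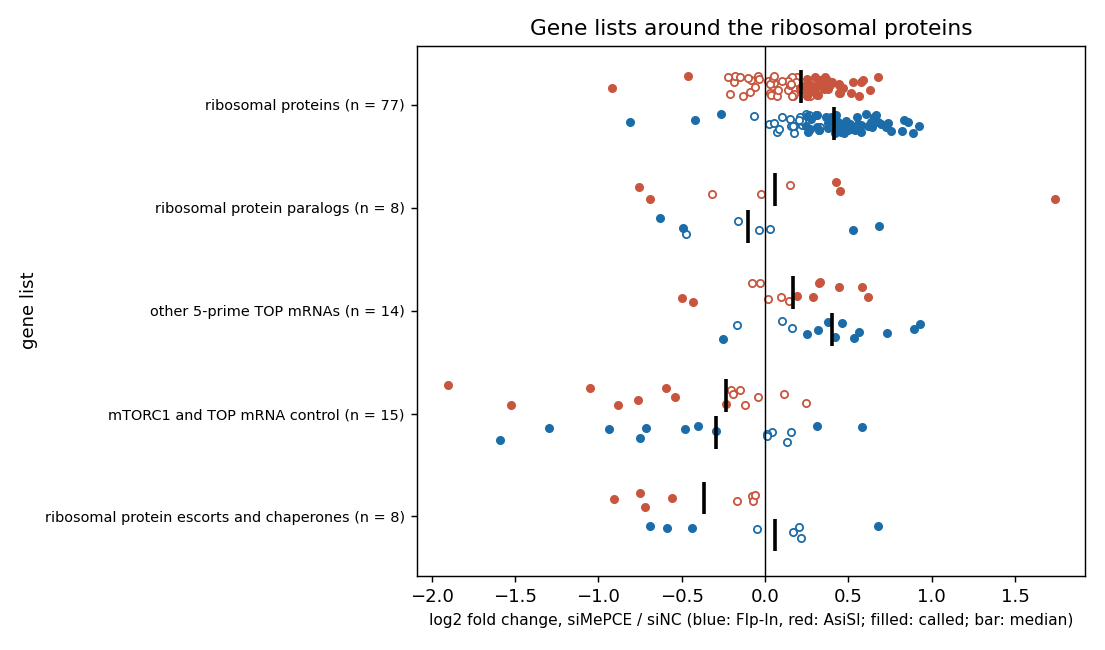
Log2 fold change, siMePCE over siNC (x axis), of the genes of 5 lists (y axis, with the number of genes) in Flp-In (blue) and AsiSI cells (red); filled points were called and bars are list medians. The medians of the 77 ribosomal proteins (0.41 and 0.22) and of the other TOP mRNAs (0.40 and 0.17) lie above 0, and those of the mTORC1 and TOP control genes (−0.29 and −0.23) below.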

How the data were processed

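Total RNA from 8 libraries was sequenced after ribosomal RNA removal with a directional kit, per the labels' protocols. Per the submitters' processing notes the authors used Trim Galore, FastQC, STAR, SAMtools and featureCounts on hg19; versions, strand setting and annotation release are not given in the sources used here. The authors deposited 1 table of raw counts per gene. Its length column equals end minus start plus 1 in all 80311 rows, so introns are included. Symbols matched 50.8% of rows (85.2% of counts) by identifier; gene types came from GENCODE 29 and promoters from RefSeq (GRCh38.p14).

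Counts were fitted with edgeR 4.0.16 in R 4.3.3 (quasi-likelihood test with robust estimation, TMM scaling, filterByExpr, 4 group means over all 8 libraries, common BCV 0.121), with Benjamini-Hochberg adjustment over 43321 genes and calls at an adjusted p under 0.05. SE is the log2 fold change divided by the square root of F. CPM are TMM-scaled. Replicate pairs differed beyond sampling noise (chi-square per degree of freedom 4.19 to 10.0). Alternatives included DESeq2 1.42.0, other scalings and filters, a replicate block and leaving out each library.

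The members and lists were chosen with earlier results of these data known. Members named are the 8 called with the largest rises and falls in each siRNA comparison and between the lines, and 13 fixed genes; from each list up to 4 called genes per comparison. RPL27A, RPS15, RPS26, RPS28, LARP1, TSC1 and RHEB were named after their values were seen. A few named items and their values are not reported here.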

Additional observations from a re-analysis of the deposited data

Results flagged for a closer look

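Within the lists of genes around the ribosomal proteins, 3 genes responded to siMePCE differently in the 2 lines by the test of that difference. The lists held 3 to 15 genes each. Of all genes 2.6% passed this test upwards and 1.81% downwards, and of protein-coding genes 3.2% and 3.41%. For EEF1A1 the log2 fold change in AsiSI cells minus that in Flp-In cells was −0.60 (SE 0.11, adjusted p = 0.00213), with 1544 and 1655 CPM in control Flp-In cells, 3265 and 2817 after their knockdown, 1541 and 1586 in control AsiSI cells, and 2045 and 1873 after knockdown there. For MAX, which CHURC1-FNTB overlaps with 1.01 times its counts, it was −0.57 (adjusted p = 0.00492). For MYC it was −1.56 (adjusted p = 1.12e-07), with 95.7 and 97.9 CPM in control Flp-In cells, 224 and 205 after their knockdown, 172 and 189 in control AsiSI cells, and 138 and 134 after knockdown there. No ribosomal protein gene passed this test in the edgeR fit.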

How the results depend on the processing

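Members called higher in Flp-In cells numbered 41 to 62 when 1 library was left out, and members called lower 1 to 3; the median was 0.29 to 0.52. In AsiSI cells the counts were 20 to 41 higher and 2 to 6 lower, with medians of 0.14 to 0.26. The median in AsiSI cells was 0.36 with scaling on protein-coding rows and 0.35 with a mean CPM of at least 1; scaling on protein-coding rows moved the median of all genes from 0.03 to 0.14 in Flp-In and from 0.04 to 0.18 in AsiSI cells, and called 68 and 54 members higher and 2 and 2 lower. The difference between lines gave 5 members lower with no filter, 3 with DESeq2, 5 with the replicate block and 0 to 8 with 1 library left out. Between the lines under siNC, 10 to 21 members were higher with 1 library left out, and 13 were lower with total counts only.

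With the replicate block the calls were 60 higher and 3 lower in Flp-In cells, 41 and 4 in AsiSI cells, and 20 and 8 between the lines. Libraries with the same number deviated together with r of 0.068 (Flp-In), 0.222 (AsiSI), 0.207 (lines, siNC) and 0.238 (lines, siMePCE) over 25969 genes; the labels do not say that the numbers pair samples.

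Of 142 called gene results followed, 99 kept their call in every setting. Log2 fold changes that changed sign were all of uncalled results, and the cause was not tested. RPL10 in AsiSI cells was at −0.0094 with no filter and ranged from −0.10 to 0.13 with 1 library left out. RPLP0 in Flp-In cells ranged from −0.10 to 0.17 with 1 library left out, and in AsiSI cells was at 0.046 with scaling on protein-coding rows and 0.031 with a mean CPM of at least 1. RPL36A with 1 library left out ranged from −0.11 to 0.27 in Flp-In cells and from −0.22 to 0.017 in AsiSI cells, where it was at 0.057 and 0.043 under the same scaling and filter. Every member held at least 656 counts in every library, and each group had 2 libraries.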
